A study of Arabidopsis thaliana with 12 samples.

Results

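The 5 defence protein genes of Arabidopsis thaliana described here, across growth in light and darkness and across overexpression of MIF1, are OSM34 (AT4G11650, an osmotin), ChiC (AT4G19810, a class V chitinase), AT4G16260 (a beta-1,3-glucanase), THI2.2 (AT5G36910, a thionin) and ECS1 (AT1G31580, a cell wall protein). The members were the probe sets that the platform annotation assigned to exactly 1 of these genes. There were 5 such probe sets, 1 per gene, of 22810 on the array, whose annotation names 13286 genes. All 5 lay among the 15922 probe sets bright enough to be tested. The genes had been picked because their differences were large in earlier results from the same arrays. OSM34, ChiC, AT4G16260 and ECS1 were picked on MIF1OE against vector in light, and THI2.2 and ECS1 on dark against light in vector seedlings. Values from these contrasts, and from contrasts that reuse the same arrays, are therefore given as descriptions with a standard error and no p.

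Whole 7-day-old seedlings of ecotype Columbia gave the RNA for 12 ATH1 arrays of 1 colour, 3 in each of 4 groups: dark-grown MIF1OE, dark-grown vector, light-grown MIF1OE and light-grown vector. MIF1OE plants carried MINI ZINC FINGER 1 behind the 35S promoter, which is active in most tissues, so the gene was not restricted to its own cells. They were T2 plants of 2 transformed lines, line 124 for replicates 1 and 2 and line 127 for replicate 3, and the fit counts the 2 samples of line 124 as separate. Vector plants came from 3 lines, numbers 1, 4 and 7, which are replicates 1, 2 and 3. All groups, vector included, were grown on 50 µg/mL hygromycin and only resistant seedlings were taken, after 2 days of stratification and growth at 22 °C. The light-grown groups had days of 16 h light and nights of 8 h, and the dark-grown groups received 2 h of light to start germination. No probe set carried the name MIF1, so the level of the transgene is not reported here.

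Plants make defence proteins that act on the microbe directly. Osmotins and other thaumatin-like proteins disturb fungal membranes and also accumulate under salt and drought. Chitinases cut the chitin of fungal walls, and beta-1,3-glucanases cut the glucans of fungal walls and the callose of the plant's own walls. Thionins are small cysteine-rich peptides that damage microbial membranes. ECS1 encodes a cell wall protein that was described in work on resistance to the bacterium Xanthomonas campestris. Several of these families are also expressed in development, without a pathogen, and no infection was part of the present design.

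Values are the authors' probe set intensities in arbitrary units. Differences are on the scale of log2(intensity + 7), on which changes of dim probe sets come out too small, and their standard errors (SE) come from 1 limma fit over all 12 arrays. A probe set was called where its limma adjusted p over all 15922 was under 0.05. With MIF1OE against vector, 13.2% of probe sets were called in darkness and 1.02% in light. With dark against light, 24.5% were called in MIF1OE and 30.6% in vector seedlings. Levels are not compared between genes, because probe sets differ in how brightly they bind. All 5 members' probe sets carry the plain suffix that Affymetrix gives to sets not marked as shared between transcripts, and whether they also bind transcripts of related genes was not checked further. In RNA of whole seedlings, fewer cells of a type and less RNA per cell cannot be told apart.

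Arrays of a group correlated with r between 0.9216 and 0.9608 over the probe sets tested, lowest in light vector. Among genes that mark tissues, the 6 measured leaf and light genes (of 21 listed) summed to 5331 to 7874 in dark MIF1OE, 6344 to 10740 in dark vector, 15270 to 16930 in light MIF1OE and 17800 to 22560 in light vector arrays. The 3 measured root genes (of 11 listed) summed to 4999 to 5221 in dark MIF1OE, 4239 to 5067 in dark vector, 3765 to 5268 in light MIF1OE and 4237 to 4841 in light vector arrays. Nearly all of the root sum is PYK10, and the dimmer root hair expansins EXPA7 (1.56, SE 0.26) and EXPA18 (1.53, SE 0.31) rose in dark MIF1OE against vector. The 4 measured seed genes (of 16 listed) summed to 2628 to 5760 in dark MIF1OE, 880 to 1297 in dark vector, 378.3 to 664.8 in light MIF1OE and 41.63 to 97.94 in light vector arrays. The seed sums did not overlap between any of the groups, and no measured marker was at 0. ICL made up most of the seed sum in the dark and rose by 2.06 in dark MIF1OE against vector (SE 0.40), as did the cupin AT2G28490 by 4.95 (SE 0.67) and PAP85 by 3.33 (SE 0.52), whereas the oleosin OLEO3 fell (-1.66, SE 0.49). The seed sums were higher in dark vector than in light MIF1OE. OSM34 and AT4G16260 had the higher mean in light MIF1OE, with overlapping arrays for OSM34. Any part of these tissues in the results on the 5 genes was not tested.

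OSM34 was bright on most arrays. Its intensity was 3630, 2959 and 3777 in dark MIF1OE and 1352, 1784 and 1248 in dark vector seedlings. In light it was 1806, 1636 and 3434 in MIF1OE and 567.2, 388.4 and 289.0 in vector seedlings. Every MIF1OE array lay above every vector array grown in the same condition. On the dark MIF1OE arrays OSM34 stood above 99.59% to 99.83% of all probe sets, and on the light vector arrays above 83.87% to 92.56%.

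ChiC separated the genotypes in both conditions. Its intensity was 758.3, 416.6 and 613.5 in dark MIF1OE and 65.8, 99.8 and 45.6 in dark vector seedlings. In light it was 318.2, 296.0 and 666.2 in MIF1OE and 121.9, 72.9 and 53.5 in vector seedlings. The lowest of the 6 MIF1OE arrays exceeded the highest of the 6 vector arrays. Dark and light arrays of the same genotype overlapped.

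AT4G16260 was arranged much like OSM34. Its intensity was 2455, 1889 and 2507 in dark MIF1OE and 486.8, 866.6 and 476.5 in dark vector seedlings. In light it was 1029, 1059 and 1966 in MIF1OE and 482.4, 309.8 and 137.5 in vector seedlings. The MIF1OE arrays again lay above all vector arrays, while dark and light overlapped within each genotype.

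THI2.2 was visible mainly in light. Its intensity was 3.4, 5.6 and 4.0 in dark MIF1OE and 15.6, 7.4 and 3.7 in dark vector seedlings. In light it was 72.1, 214.2 and 16.9 in MIF1OE and 458.9, 334.8 and 172.8 in vector seedlings. Every dark array lay below every light array, the nearest being 15.6 in dark vector and 16.9 in light MIF1OE. The dark values stood above only 9.833% to 20.27% of all probe sets, so the array gives little information on differences between the genotypes in darkness.

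ECS1 varied over a wider range than any other member. Its intensity was 5.0, 6.3 and 17.4 in dark MIF1OE and 62.5, 28.4 and 61.6 in dark vector seedlings. In light it was 65.7, 213.1 and 21.7 in MIF1OE and 1710, 1166 and 639.9 in vector seedlings. The light vector arrays lay above all others and the dark MIF1OE arrays below all others. Light MIF1OE and dark vector arrays overlapped.

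**Figure D1:**
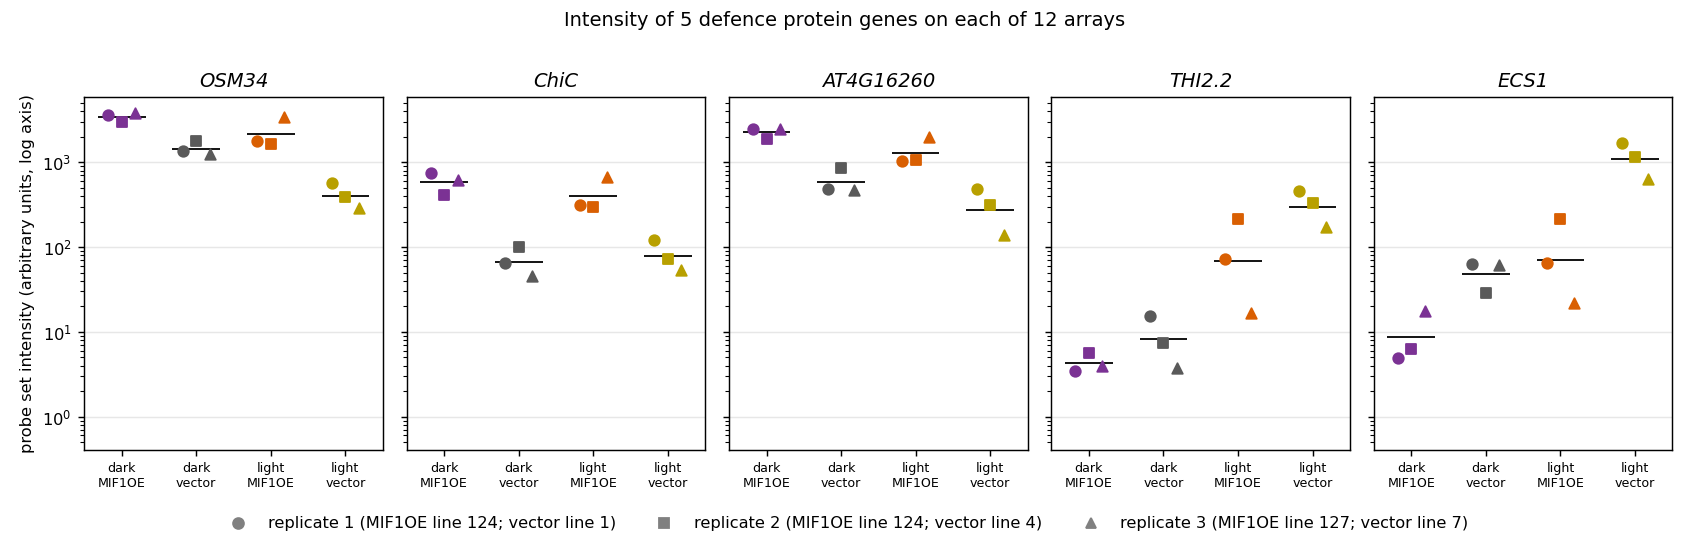
Probe set intensity (arbitrary units, log axis) of the 5 genes on each of the 12 arrays; each point is 1 array, its shape gives the replicate, and the line is the group mean taken on the log2(intensity + 7) scale. MIF1OE arrays lie above vector arrays of the same condition for OSM34, ChiC and AT4G16260, and ECS1 reaches 1710 in light vector but at most 17.4 in dark MIF1OE.

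Whether MIF1 overexpression was accompanied by a different level in darkness could be tested for the 3 genes picked on light arrays alone. Their SE still takes in the spread of the light arrays that picked them, and light and dark samples share plant sources. Their p are therefore not fully independent of the picking. All 3 rose, against 13.2% of probe sets called in either direction and 6.37% called higher. OSM34 averaged 3455 ± 436 in dark MIF1OE and 1461 ± 285 in dark vector seedlings (SD, n = 3 each), a log2 difference of 1.25 (SE 0.30, 2.37-fold, limma adjusted p = 0.0189). ChiC averaged 596 ± 171 in dark MIF1OE and 70.4 ± 27.4 in dark vector seedlings, a log2 difference of 2.98 (SE 0.38, 7.90-fold, limma adjusted p = 0.000814). AT4G16260 averaged 2284 ± 343 in dark MIF1OE and 610.0 ± 222 in dark vector seedlings, a log2 difference of 1.94 (SE 0.41, 3.83-fold, limma adjusted p = 0.0106). Across all probe sets 36.6% had dark MIF1OE and dark vector arrays that did not overlap, as these 3 did.

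The ChiC call held under all 26 alternative settings (limma adjusted p up to 0.0209). That of OSM34 was lost without any 1 of dark MIF1OE replicate 1 or 3 or dark vector replicate 1 or 3 (log2 difference 1.14 to 1.21, limma adjusted p 0.0567 to 0.0683). With line 127 as the only MIF1OE line, the calls of OSM34 and AT4G16260 ended as well (limma adjusted p = 0.115 and 0.138), with log2 differences of 1.38 and 2.08.

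THI2.2 and ECS1 were lower on average in dark MIF1OE, and are described only. THI2.2 averaged 4.33 ± 1.11 in dark MIF1OE and 8.91 ± 6.06 in dark vector seedlings, a log2 difference of -0.43 (SE 0.63) with overlapping arrays. ECS1 averaged 9.57 ± 6.85 in dark MIF1OE and 50.8 ± 19.4 in dark vector seedlings, a log2 difference of -1.81 (SE 0.62) with no overlap. Both sit at the dim end of the array in dark MIF1OE, where the pseudocount matters: the ECS1 difference was -2.40 with a pseudocount of 1 and -0.98 with 32.

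In light the same contrast picked 4 of the 5 genes, against 1.02% of all probe sets called, so nothing is read from their calls. OSM34 averaged 2292 ± 993 in light MIF1OE and 415 ± 141 in light vector seedlings, a log2 difference of 2.42 (SE 0.30). ChiC averaged 427 ± 208 in light MIF1OE and 82.8 ± 35.3 in light vector seedlings, a log2 difference of 2.24 (SE 0.38). AT4G16260 averaged 1351 ± 532 in light MIF1OE and 309.9 ± 172 in light vector seedlings, a log2 difference of 2.2 (SE 0.41). Among the 42 probe sets of 1 named gene that were called higher with no overlap, these 3 ranked 6, 7 and 10.

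ECS1 averaged 100.2 ± 100.2 in light MIF1OE and 1172 ± 535 in light vector seedlings, a log2 difference of -3.82 (SE 0.62). This was the most negative difference of all 15922 probe sets in light. THI2.2 averaged 101.1 ± 102 in light MIF1OE and 322 ± 143 in light vector seedlings, a log2 difference of -2.03 (SE 0.63). The THI2.2 arrays overlapped, because MIF1OE replicate 2 at 214.2 lay above vector replicate 3 at 172.8.

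The difference between the dark and the light effect of MIF1OE, for which 0.754% of all probe sets were called, is a description for every member. It was -1.17 (SE 0.42) for OSM34 and 0.74 (SE 0.54) for ChiC. It was -0.26 (SE 0.58) for AT4G16260, smaller than its SE. For THI2.2 it was 1.61 (SE 0.88) and for ECS1 2.01 (SE 0.87), so MIF1OE lay nearer to vector in darkness on this scale. Their dark vector means (3.92 and 5.79) lay too near the floor of that scale for falls as large as in light. The positive sign was thus fixed on this scale and is not read as a weaker effect in darkness. By mean intensity, without the pseudocount, ECS1 was 5.31-fold lower in MIF1OE in darkness and 11.7-fold lower in light. Whether its effect differed apart from the floor was not tested. All 4 groups of arrays enter these values, including those that picked the genes.

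**Figure D2:**
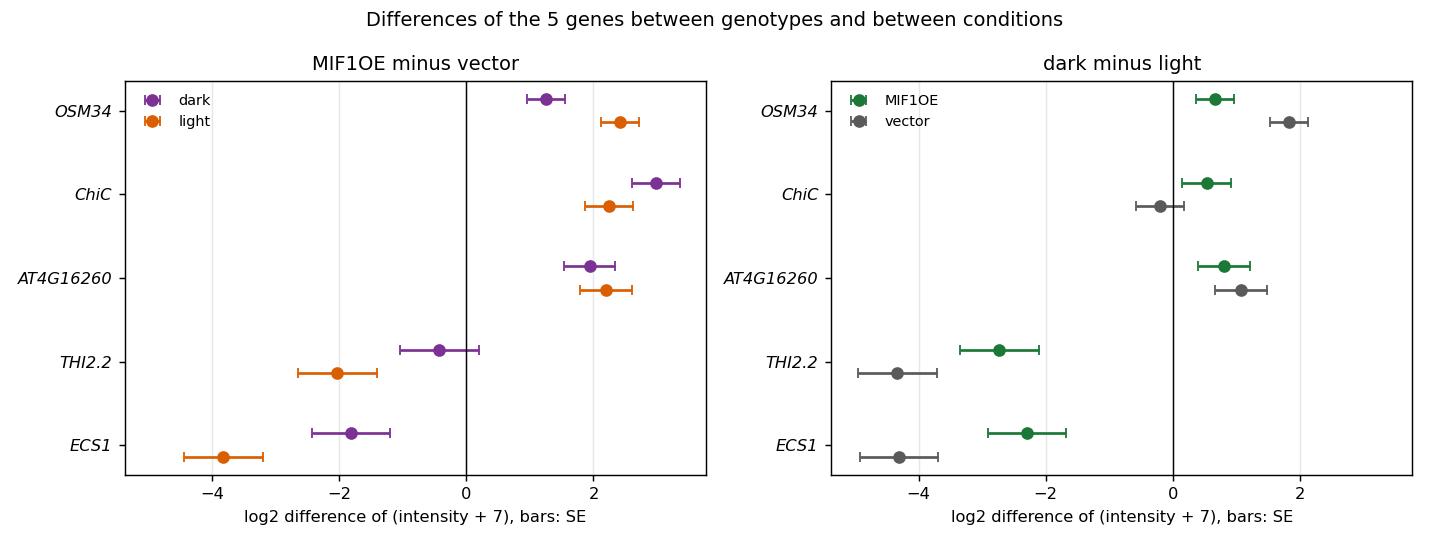
Log2 differences of the 5 genes from the fit over 12 arrays, with bars of 1 SE; the left panel is MIF1OE minus vector in darkness and in light, and the right panel is dark minus light in MIF1OE and in vector seedlings. OSM34, ChiC and AT4G16260 lie right of 0 in both conditions on the left, and THI2.2 and ECS1 lie between -4.33 and -2.29 in both genotypes on the right.

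THI2.2 was the 1 member whose dark response could be tested in a genotype that had not picked it. Its SE still takes in the spread of the vector arrays that picked it, so its p is not fully independent of the picking. In MIF1OE seedlings THI2.2 fell in darkness, by 2.73 on the log2 scale (SE 0.63, limma adjusted p = 0.00725), where 24.5% of all probe sets were called. It was lower in darkness in all 3 pairs matched by line and replicate number. The log2 differences were -2.92 and -4.14 in the pairs of line 124 and -1.12 in line 127. The call held in each of the 24 alternative settings for this contrast (limma adjusted p up to 0.0290), though with a pseudocount of 32 the difference was -1.57. With the plant source as a replicate block its limma adjusted p was 0.00410.

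The same contrast in vector seedlings picked THI2.2 and ECS1, which ranked 4 and 5 among the 1107 named probe sets called lower with no overlap. THI2.2 stood at a log2 difference of -4.33 (SE 0.63) and ECS1 at -4.30 (SE 0.62). With a pseudocount of 32 the THI2.2 difference was -3.03. By vector line the pairs of THI2.2 gave -4.37, -4.56 and -4.07 for lines 1, 4 and 7, and those of ECS1 gave -4.63, -5.05 and -3.24. In MIF1OE seedlings ECS1 was lower in darkness by a log2 difference of -2.29 (SE 0.62), and its pairs gave -2.60 and -4.05 in line 124 and -0.23 in line 127. Line 127 thus held almost as little ECS1 in light (21.7) as in darkness (17.4).

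OSM34 was higher in darkness in vector seedlings, by a log2 difference of 1.84 (SE 0.30) with no overlap and pairs of 1.24, 2.18 and 2.08. In MIF1OE seedlings its difference was 0.66 (SE 0.30), with overlapping arrays. AT4G16260 stood at 0.81 (SE 0.41) in MIF1OE and 1.07 (SE 0.41) in vector seedlings, overlapping in both. Its vector pairs were uneven, at 0.01, 1.46 and 1.74. ChiC stood at 0.53 (SE 0.38) in MIF1OE and -0.20 (SE 0.38) in vector seedlings. The ChiC value in vector turned positive without light vector replicate 1 (0.09) or dark vector replicate 3 (0.05), so no direction is given for it.

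The group means gave a separate order for each gene. For OSM34, on the log2 scale, dark MIF1OE (11.75), light MIF1OE (11.08) and dark vector (10.50) followed each other, with each neighbouring pair overlapping, and light vector (8.67) lay apart below. For ChiC the means of dark MIF1OE (9.19) and light MIF1OE (8.66) overlapped in their arrays, as did light vector (6.42) and dark vector (6.21), with a gap between the genotypes. AT4G16260 had the same split, with dark MIF1OE (11.15) and light MIF1OE (10.34) above dark vector (9.21) and light vector (8.14).

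For THI2.2 the gap lay between conditions and not between genotypes. Light vector (8.26) and light MIF1OE (6.22) overlapped, and lay above dark vector (3.92) and dark MIF1OE (3.50), which overlapped too. For ECS1 light vector (10.09) stood alone, light MIF1OE (6.27) and dark vector (5.79) overlapped, and dark MIF1OE (3.98) was separate at the bottom.

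The 2 MIF1OE lines differed more in light than in darkness. In light, line 127 lay above the vector mean by 3.08 for OSM34, 2.98 for ChiC and 2.81 for AT4G16260. The arrays of line 124 lay above it by 2.16 and 2.02 for OSM34, 1.93 and 1.83 for ChiC, and 1.88 and 1.92 for AT4G16260. Line 127 was also the farthest below vector for THI2.2 (-3.68, against -1.95 and -0.47 in line 124) and for ECS1 (-5.25, against -3.91 and -2.31). All 5 genes were thus farthest from vector on the single array of line 127. In darkness the 3 arrays were closer together, at 1.03 to 1.38 for OSM34, 2.51 to 3.37 for ChiC and 1.68 to 2.08 for AT4G16260. THI2.2 lay at -0.54 to -0.27, but was too dim in darkness for the lines to differ much on this scale. ECS1 in darkness went the other way, with line 127 nearest to vector (-1.18, against -2.21 and -2.06 in line 124). With 1 array of line 127 in each condition, line and array cannot be told apart.

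**Figure D3:**
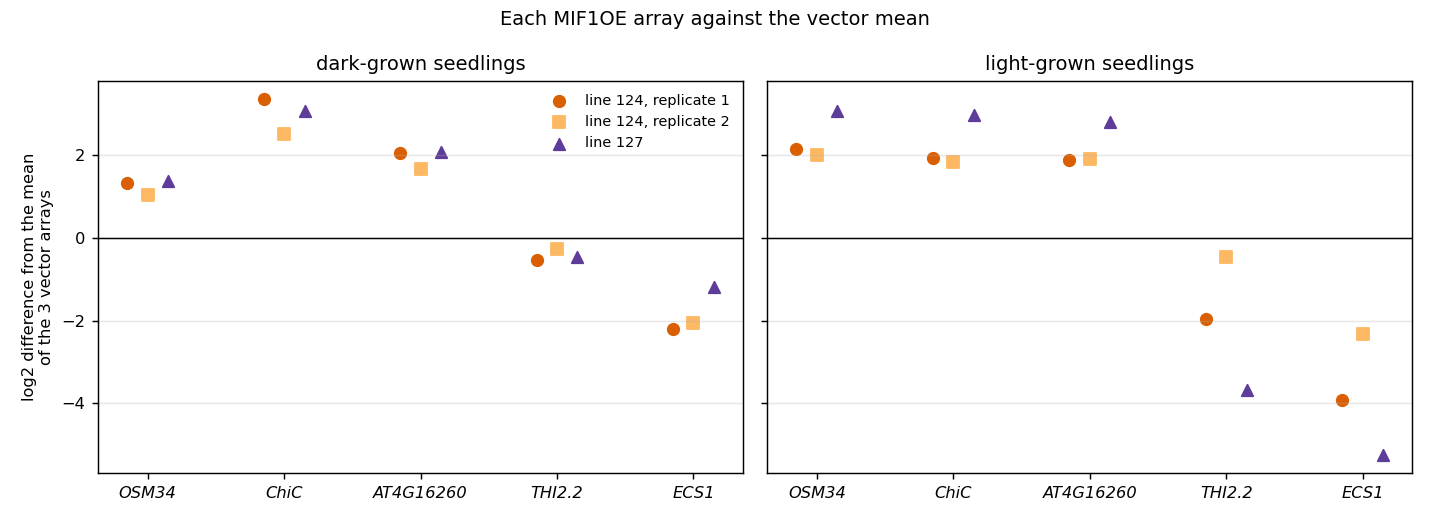
Each MIF1OE array minus the mean of the 3 vector arrays of its condition, on the log2(intensity + 7) scale, in darkness (left) and in light (right); circles and squares are the 2 replicates of line 124 and triangles the single array of line 127. In light the triangle is the farthest from 0 for every gene, from 3.08 for OSM34 to -5.25 for ECS1.

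The members also varied more between light arrays than most probe sets. Their light standard deviations exceeded those of 81.4% to 99.8% of all probe sets tested. High spread was not confined to light. In dark vector seedlings the share ran from 65% for OSM34 to 94.4% for ECS1. In dark MIF1OE it ran from 28.2% for THI2.2, which was dim there, to 94.1% for ECS1. In light MIF1OE the log2 standard deviation was 1.61 for THI2.2 and 1.47 for ECS1, where the median probe set had 0.22. In light vector seedlings all 5 genes were highest in line 1, then line 4, then line 7, an order that 24.7% of all probe sets shared. In light MIF1OE, THI2.2 and ECS1 were highest in replicate 2 and lowest in replicate 3, the order of 22.7% of all probe sets. OSM34 and ChiC were highest in replicate 3 and lowest in replicate 2 there (18.2% of all probe sets). THI2.2 and ECS1 moved opposite to OSM34 and ChiC across light MIF1OE arrays, but with them across light vector arrays.

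Over the 12 arrays, which share 4 groups and their scaling, OSM34 correlated with AT4G16260 (Pearson r = 0.96) and less with ChiC (0.80), and ChiC with AT4G16260 (0.91). THI2.2 correlated with ECS1 (0.93). OSM34 ran against ECS1 (-0.91) and against THI2.2 (-0.76). ChiC and THI2.2 were only weakly related (-0.34). These values describe the group pattern and carry no test.

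The named genes most like each member, the other members left out, were taken from 8713 probe sets of 1 gene by Pearson r over the 12 arrays. For OSM34 they were AT4G34180 (0.98), AT1G15790 (0.96) and AT3G28950 (0.96), and for ChiC AT4G33780 (0.95), AT4G18930 (0.94) and AT4G17830 (0.94). For AT4G16260 they were cwINV6 (0.95), AT4G34180 (0.95) and AT5G05640 (0.93), all below its correlation with OSM34. AT4G34180 was therefore near both OSM34 and AT4G16260. For THI2.2 they were AT2G29310 (0.98), the methionine sulfoxide reductase gene MSRB6 (0.97) and AT1G32220 (0.96). For ECS1 they were AT1G51805 (0.96), AT3G61210 (0.96) and AT1G22690 (0.95).

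The members were next set beside other genes listed under the same kind of protein, and beside genes of defence pathways. Of 202 listed genes in 11 lists, 91 had a probe set naming them and 64 were tested, 59 of them not members. In dark MIF1OE against vector, 12 of these 59 rose and 1 fell (22.0%, against 13.2% of all probe sets). AT2G15010 is among the rises, but it passed the filter on low values only through the dark MIF1OE arrays. Its call was thus fixed in advance and adds to the share without being evidence. The median log2 difference of the 59 was 0.06, against 0.00 over all. In light 1 of 59 rose (1.69%, against 1.02%), with a median of -0.16 against -0.01 over all. The jasmonate list (20 genes) and the list of osmotic and abscisic acid markers (16 genes) had no gene tested.

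Chitinases accounted for 6 of the 12 dark rises. Of 8 tested beside ChiC (25 listed), 6 rose in dark MIF1OE and none fell, with a median log2 difference of 1.35. The list joined chitinases of glycoside hydrolase families 18 and 19, and whether any of the 8 is related to ChiC in sequence was not checked. Over all probe sets 6.37% were called higher there. AT2G43620 had 159.6, 144.8 and 459.4 in dark MIF1OE and 48.3, 23.8 and 52.6 in dark vector seedlings, a rise of 2.29 (SE 0.43, limma adjusted p = 0.00643). AT4G01700 rose by 1.52 (SE 0.22, limma adjusted p = 0.00151), AT1G02360 by 1.42 (SE 0.23) and AT2G43610 by 1.33 (SE 0.26). The other rises were AT1G56680 at 1.29 (SE 0.20) and CHI at 1.12 (SE 0.33), the call of CHI being lost in 13 of 26 settings. AT1G56680 was dim, with a mean of 29.82 over all arrays, and was highest in dark MIF1OE. Whether it would have passed the filter on low values without the dark MIF1OE arrays was not tested. With line 127 as the only MIF1OE line, 2 of the 8 were called. The brightest uncalled chitinase, AT2G43590, stood at 1.36 (SE 0.47). ChiC, at 2.98, lay above all 8.

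In light none of these 8 chitinases was called by limma, and their median was -0.21. CHI stood at 1.38 (SE 0.33, limma adjusted p = 0.0835), and the other 7 lay between -0.88 and 0.40. ChiC, picked on this contrast, stood at 2.24. In darkness against light, 6 of the 8 rose in MIF1OE (12.6% of all probe sets were called higher there), led by AT2G43590 (3.83, SE 0.47) and AT2G43610 (2.70, SE 0.26). In vector seedlings 4 rose and 2 fell, where 16.9% and 13.7% of all probe sets were called higher and lower, CHI rising by 2.53 (SE 0.33) and AT2G43620 falling (-2.34, SE 0.43). ChiC was overlapping between dark and light in both genotypes.

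Of 12 thaumatin-like genes tested beside OSM34 (21 listed), 2 rose in dark MIF1OE and none in light, against 6.37% and 0.678% of all probe sets called higher. With line 127 as the only MIF1OE line the count in darkness was 0. AT1G73620 had 183.4, 173.9 and 195.5 in dark MIF1OE and 60.2, 37.1 and 36.0 in dark vector seedlings, a rise of 1.92 (SE 0.27, limma adjusted p = 0.00137). AT2G28790 rose by 0.93 (SE 0.27), a call lost in 15 of 26 settings. The list's median was -0.06 in darkness and -0.17 in light. Dark against light, 2 of 12 were called in MIF1OE and 4 of 12 in vector seedlings (3 higher, 1 lower), near the shares of all probe sets called (24.5% and 30.6%). AT5G40020 rose by 1.68 in MIF1OE (SE 0.24) and by 1.60 in vector seedlings (SE 0.24), and AT1G73620 fell in vector seedlings (-1.33, SE 0.27) whereas OSM34 was higher there.

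None of the 24 beta-1,3-glucanases tested beside AT4G16260 (47 listed) rose in MIF1OE in either condition. Of all probe sets only 6.37% were called higher in darkness and 0.678% in light, so nothing is read from this count. AT1G11820 fell in darkness, with 163.4, 168.4 and 177.5 in dark MIF1OE and 289.7, 314.9 and 367.6 in dark vector seedlings (-0.90, SE 0.21, limma adjusted p = 0.0178). That call was lost in 6 of 26 settings. The brightest uncalled members, AT2G05790 and AT3G55430, stood at -0.19 (SE 0.21) and -0.04 (SE 0.16) in darkness. Medians were -0.18 in darkness and -0.16 in light. AT4G16260, picked on the light contrast, lay above all 24 in darkness at 1.94.

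AT2G15010, the 1 other thionin tested (6 listed), went against THI2.2. It had 454.2, 298.8 and 25.5 in dark MIF1OE and 3.1, 1.7 and 3.6 in dark vector seedlings, a log2 difference of 4.09 (SE 0.72). In light it had 14.2, 14.7 and 5.3 in MIF1OE and 3.1, 2.2 and 1.5 in vector seedlings (0.95, SE 0.72). It passed the filter on low values only through the dark MIF1OE arrays, so it had to differ there and no p is given, and it was not tested with the filter on the mean of log2 values or at the 50th percentile. The array of line 127 was the lowest MIF1OE array in both conditions. Between dark and light MIF1OE seedlings AT2G15010 stood at 3.22 (SE 0.72), where THI2.2 fell by 2.73.

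Of 7 defensins (10 listed), small cysteine-rich peptides like the thionins, 2 rose in dark MIF1OE, where 6.37% of all probe sets were called higher. PDF2.5 rose by 1.66 (SE 0.21, limma adjusted p = 0.000937). PDF1.4 rose by 1.26 (SE 0.37), a call lost in 14 of 26 settings. None was called in light, where PDF1.4 stood at 1.21 (SE 0.37) and PDF2.5 at -0.47 (SE 0.21). The brightest, LCR69 and LCR68, stood at -0.30 (SE 0.28) and -0.43 (SE 0.19) in darkness.

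**Figure D4:**
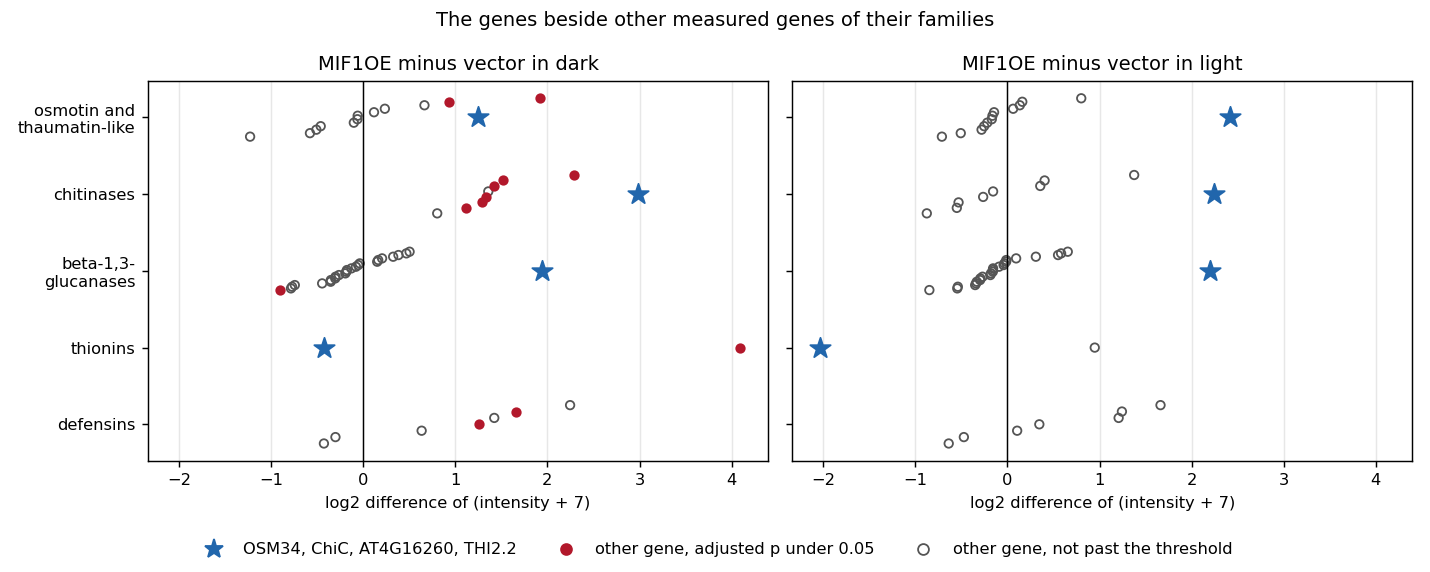
Log2 difference, MIF1OE minus vector, of other tested genes of the listed kinds of protein in darkness (left) and light (right); each circle is 1 gene, filled where its limma adjusted p over all probe sets is under 0.05, stars are OSM34, ChiC, AT4G16260 and THI2.2, and heights within a row only separate the points. In darkness 6 of 8 other chitinases are filled, and in light no circle is.

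Few genes of the signalling pathways that control such proteins could be named on the array through the annotation used here. Of 18 salicylic acid genes 3 were tested and none was called in MIF1OE against vector. In darkness the highest of the 3, GRX480, a glutaredoxin of that pathway, stood at 0.72 (SE 0.30), and WRKY53, a transcription factor, at 0.17 (SE 0.73). Of 20 genes of pattern-triggered and camalexin defence 2 were tested, and BIK1, a receptor-associated kinase, stood at 0.06 (SE 0.22) in darkness and 0.30 (SE 0.22) in light.

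Of 24 ethylene genes 2 were tested. AT1G12010, an oxidase of the last step of ethylene synthesis, had 490.5, 140.9 and 577.9 in dark MIF1OE and 42.7, 118.3 and 72.3 in dark vector seedlings. In light it had 549.0, 331.7 and 783.6 in MIF1OE and 52.8, 66.1 and 37.9 in vector seedlings. It rose by 2.15 in darkness (SE 0.50, limma adjusted p = 0.0166) and by 3.19 in light (SE 0.50, limma adjusted p = 0.0105), the 1 gene of the 59 called in light. The dark call was lost in 6 of 26 settings and the light call in 3 of 26, among them line 124 as the only MIF1OE line for both. Like OSM34 it was highest in line 127 in light. EIN3, a transcription factor of ethylene response, stood at -0.49 (SE 0.19) in darkness and 0.22 (SE 0.19) in light, and was not called.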

How the data were processed

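The authors deposited 1 intensity per probe set and array, on a linear scale, made with GCOS per the submitters' processing notes, which give no version. Each array had a trimmed mean intensity (2% off either end) of 150.01, so the authors' scaling was kept. No detection calls were used, and the number of arrays limits the precision.

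From these, log2(intensity + 7) was computed. The 64 control probe sets and the 6824 below the 30th percentile of mean intensity were left out, and 15922 were tested with limma 3.58.1 (R 4.3.3; lmFit and eBayes, 4 group means, 8 residual degrees of freedom) with Benjamini-Hochberg adjustment over all of them, threshold 0.05. Gene names came from the platform annotation, updated through a RefSeq gene table (TAIR10.1). No coordinates are printed, since the table names no build, and sequences and promoters are not analysed here. The fit was tested on simulated data.

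Light and dark samples of a vector line, or of a MIF1OE line and replicate number in the labels, share a source. Their deviations from group means correlated with r between 0.235 and 0.334 in all 6 pairs, so they were taken as paired, with the pairing entered as an alternative. Replicates are described as biological in the series' design text. No 2 arrays held identical values.

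The members and gene lists were chosen with earlier results of these data known. Besides the members, named genes were up to 4 called and 2 bright uncalled genes per list and contrast, and the 3 genes most like each member. AT1G56680 and CHI were also named among the dark chitinases because they complete a count. Alternatives covered the pseudocount, filter, threshold, normalization, MIF1OE line, block and each array left out.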

Additional observations from a re-analysis of the deposited data

Results flagged for a closer look

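Among the listed genes that are not members, 4 had an effect of MIF1OE that differed between darkness and light by limma's interaction test over all probe sets, in which 0.754% of probe sets were called. They were 3 of the 59 defence genes and 1 of the 13 tissue markers. PDF2.5 had 108.1, 138.8 and 135.2 in dark MIF1OE, 36.4, 34.8 and 34.8 in dark vector, 67.7, 53.7 and 52.9 in light MIF1OE and 90.0, 56.0 and 111.9 in light vector seedlings. Its effect was 2.13 higher in darkness on the log2 scale (limma adjusted p = 0.00950), and the call was lost with line 127 alone. The chitinase AT1G56680 had 62.6, 49.2 and 48.3 in dark MIF1OE, 23.5, 17.7 and 12.8 in dark vector, 17.3, 21.9 and 15.5 in light MIF1OE and 33.2, 33.5 and 22.2 in light vector seedlings. Its effect was 1.82 higher in darkness (limma adjusted p = 0.0147), a call lost in 3 of 25 settings. Whether AT1G56680 passed the filter on low values only through the dark MIF1OE arrays was not tested.

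The chitinase AT4G01700 had 149.9, 150 and 248.3 in dark MIF1OE, 57.0, 64.7 and 51.3 in dark vector, 52.7, 53.7 and 73.1 in light MIF1OE and 74.8, 73.6 and 53.9 in light vector seedlings. Its effect was 1.67 higher in darkness (limma adjusted p = 0.0330), a call lost in 9 of 26 settings. The root hair expansin EXPA7, a root marker, had an effect 2.01 higher in darkness (limma adjusted p = 0.0331), a call lost in 11 of 25 settings.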

How the results depend on the processing

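Of 100 alternative values per member, a direction turned in 2, both of ChiC between dark and light vector seedlings. Of the 4 member results with a test, the call was lost under 6 settings for OSM34, 2 for AT4G16260 and 0 for ChiC and THI2.2. At a threshold of 0.01 the dark MIF1OE calls of OSM34 (1.2467) and AT4G16260 (1.9381) ended, and the counts of called probe sets were 653 (MIF1OE against vector in darkness), 51 (the same in light), 2308 (dark against light in MIF1OE) and 2636 (in vector). With line 127 alone OSM34 stood at 1.383 and AT4G16260 at 2.0839 in darkness, both no longer called, 391 probe sets were called in darkness, and 5 of the 59 other defence genes rose. With line 124 alone 1149 were called in darkness and 52 in light. Fitting the light arrays by themselves gave 61 calls in light. The cause of these changes, beyond fewer arrays or a stricter threshold, was not tested.

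Leaving out single arrays gave log2 differences of 1.142 to 1.3988 for OSM34 in darkness and of -0.4651 to 0.0941 for ChiC between dark and light vector seedlings, with counts of 1111 to 2422 (MIF1OE against vector in darkness), 47 to 252 (in light) and 3011 to 4880 (dark against light in vector). The count in darkness fell by over 1.5 times without dark MIF1OE replicate 1 (1349), 2 (1339) or 3 (1124) or dark vector replicate 2 (1187) or 3 (1111). That in light was 72 without MIF1OE replicate 1, 252 without replicate 2, 47 without replicate 3 and 96 without vector replicate 2, and that between dark and light vector was 3011 without dark vector replicate 2. The count of other defence genes that rose in darkness, 12 with all arrays, was then 8 to 13. With the plant source as a replicate block, dark against light gave 4729 calls in MIF1OE and 5873 in vector seedlings, and the call of THI2.2 held (limma adjusted p = 0.00410). A filter on the mean of log2 values, chosen after seeing the data, changed no call of a member. Dim values limit THI2.2 in darkness and ECS1 in dark MIF1OE, and 3 arrays a group limit the precision. The promoter motif description that had been planned was not run.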
